A study of Mus musculus with 12 samples.

Results

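Microglia, the resident macrophages of brain tissue, and the macrophages of the brain's borders were followed through 33 marker genes in RNA from purified mouse astrocytes. The genes were looked up by symbol in the deposited gene table. All 33 were among its 45777 genes, and all 33 passed the filter on low counts, which left 19163 genes to test. The smallest member count in any library was 18, for Pf4, and the highest was 12898, for Csf1r. The members were split by role into 9 surface receptors of homeostatic microglia, 3 transcription factors, 5 adaptors and Fc receptors, 6 leukocyte and myeloid proteins, 5 lysosomal, secreted and other products, and 5 genes of border macrophages.

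The RNA came from cortical astrocytes of mice at postnatal day 14, isolated by immunopanning together with magnetic beads, and stranded mRNA libraries were made from 1 µg of RNA with an integrity number above 7.0. Cre- control animals carried floxed Nr3c1 alleles (Nr3c1 flox/flox), the gene of the glucocorticoid receptor, and stayed with the dam. Cre- ESD animals had the same alleles and were kept from the dam for 3 hours each day between postnatal days 1 and 14. AGR cKO control animals carried the floxed alleles and the Aldh1l1-CreERT2 transgene, a recombinase that tamoxifen switches on and that the astrocyte gene Aldh1l1 drives, and stayed with the dam. AGR cKO ESD animals carried both and went through the same separation. The 4 groups, those without Cre included, were all given 4-OHT, the active form of tamoxifen, on postnatal days 5 to 7, so no group was free of the drug. Each group had 3 libraries, 12 in all, and the labels do not say how many pups went into one or whether litters were shared. The p-values therefore measure the spread between these libraries, which may be technical.

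Microglia depend on signalling through the receptor Csf1r, whose ligands Csf1 and Il34 are made by other brain cells, and the transcription factor PU.1, encoded by Spi1, sets up their gene program. Transforming growth factor beta keeps them in the homeostatic state marked by P2ry12, Tmem119 and Sall1, and Nrros, a protein of myeloid cells, holds latent Tgfb1 at their surface. Macrophages of the meninges and perivascular spaces share Csf1r and Cx3cr1 with microglia and are told apart by Mrc1, Cd163, Lyve1, Pf4 and F13a1. The CreERT2 driver is an astrocyte gene, so the design aims the deletion at astrocytes and not at these cells.

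Total gene counts were 42603546 to 52130081 per library. Nr3c1 checked the genotype labels: it held 199 to 237 CPM (a gene's counts relative to the scaled size of its library) in the 6 Cre- libraries and 66.6 to 108 CPM in the 6 AGR cKO libraries, with no overlap. Aldh1l1 stood at 371 to 632 TPM (a level per transcript length and depth) in all 12 libraries, and 15 astrocyte markers summed to 25800 to 32100 TPM. The 33 members summed to 290 to 1610 TPM. Without Sall1 and Nrros they reached 0.763% to 5.76% of the astrocyte sum. The labelled astrocyte type was thus dominant by its markers, and RNA of microglia genes was present in every library. Markers of other blood leukocytes were near 0: 14 of them summed to 1.61 to 6.19 CPM, 2 were high enough to test, and Nkg7 had no count in any library.

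Libraries within a group differed widely in these genes, and 3 of them stand apart. Cre- control replicate 1 held the highest value of the 12 for 26 of 33 members, and AGR cKO ESD replicate 1 the lowest value for 26. Cre- ESD replicate 3 held the highest Nrros level, 42.6 TPM, and also 75.3 TPM of Fkbp5, a gene that glucocorticoid hormone is known to induce, against 2.38 to 7.96 TPM in the other 11 libraries. The highest library exceeded the lowest by a median of 6.39-fold over the 33 members, from 1.35-fold for Sall1 to 11.1-fold for Nrros in CPM. Within Cre- control alone the median ratio of highest to lowest was 2.73, within Cre- ESD 1.76, within AGR cKO control 2.24 and within AGR cKO ESD 2.67. Values without 1 of these libraries are also given for Nrros and for the members' median fold changes within each rearing condition. Most other results are given with all 12 libraries only.

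**Figure D1:**
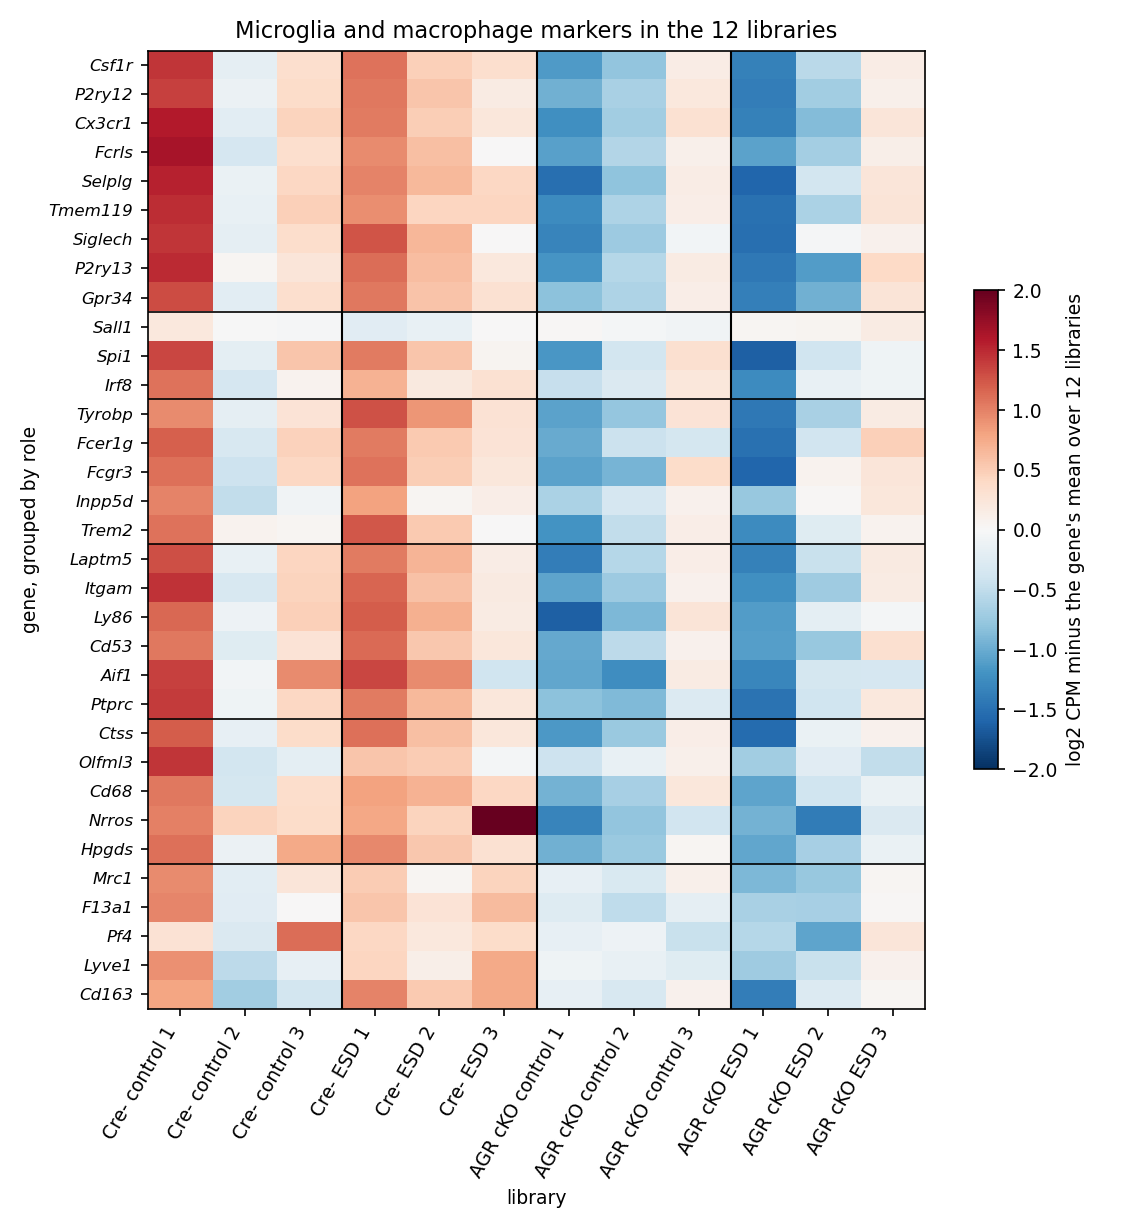
Heat map of the 33 markers (rows, grouped by role) in the 12 libraries (columns, by group); the colour is log2 CPM minus the gene's mean over the 12 libraries, red above and blue below. Cre- control 1 is the reddest column and AGR cKO ESD 1 the bluest for 26 genes each, the Sall1 row is nearly colourless, and the darkest cell is Nrros in Cre- ESD 3.

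The most abundant member was Csf1r (gene ID 12978, mm10 chromosome 18, 61105572 to 61131139), the receptor for Csf1 and Il34 that microglia need to survive, at a mean of 90.2 TPM. Its values were 223, 66.7 and 96.6 TPM in Cre- control, 160, 107 and 95.5 in Cre- ESD, 36.7, 44.3 and 85.3 in AGR cKO control, and 29.2, 54.6 and 84.3 in AGR cKO ESD. The highest AGR cKO libraries lay above the lowest Cre- control library, and the lowest Cre- ESD library lay above all of the AGR cKO ESD libraries.

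P2ry12 (gene ID 70839, chromosome 3, 59216271 to 59262985), the ADP receptor that steers microglial processes toward injury, held 153, 49.8 and 73.4 TPM in Cre- control and 114, 82.0 and 63.8 in Cre- ESD. The AGR cKO control libraries held 29.9, 35.5 and 65.7 TPM, and the AGR cKO ESD libraries 21.2, 35.1 and 60.4. As for Csf1r, the ESD groups did not overlap between genotypes and the control groups did. Within each library P2ry12 stood at 64.4% to 81.5% of Csf1r. Cx3cr1, the fractalkine receptor, ranged from 11.9 TPM in AGR cKO ESD 1 to 101 TPM in Cre- control 1, at 32.6% to 45.9% of Csf1r. Ctss, a lysosomal protease, ranged from 20.2 to 151 TPM between the same libraries, and Laptm5, a lysosomal membrane protein of blood-lineage cells, from 14.4 to 99.5 TPM. Exons of Csf1r overlap those of Hmgxb3 on the opposite strand by 15.1% and Itgam shares 68.7% of its exon bases with the predicted gene Gm49368 in GENCODE vM21, so their counts carry that uncertainty; other overlaps were 1.7% at most. The least abundant members were Cd163, at a mean of 1.77 TPM, and Ptprc (CD45, the pan-leukocyte phosphatase), at 2.40 TPM.

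Sall1 (gene ID 58198, chromosome 8, 89027242 to 89044162), a zinc finger factor that keeps microglial identity in mice, departed from the other members. It held 77.5, 61.1 and 61.4 TPM in Cre- control, 51.8, 55.6 and 62.1 in Cre- ESD, 66.1, 61.4 and 59.6 in AGR cKO control, and 62.0, 67.9 and 69.3 in AGR cKO ESD. Its level was 32.5% of Csf1r in Cre- ESD 1 and 213% of Csf1r in AGR cKO ESD 1, so it did not follow the microglial receptors across libraries.

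**Figure D2:**
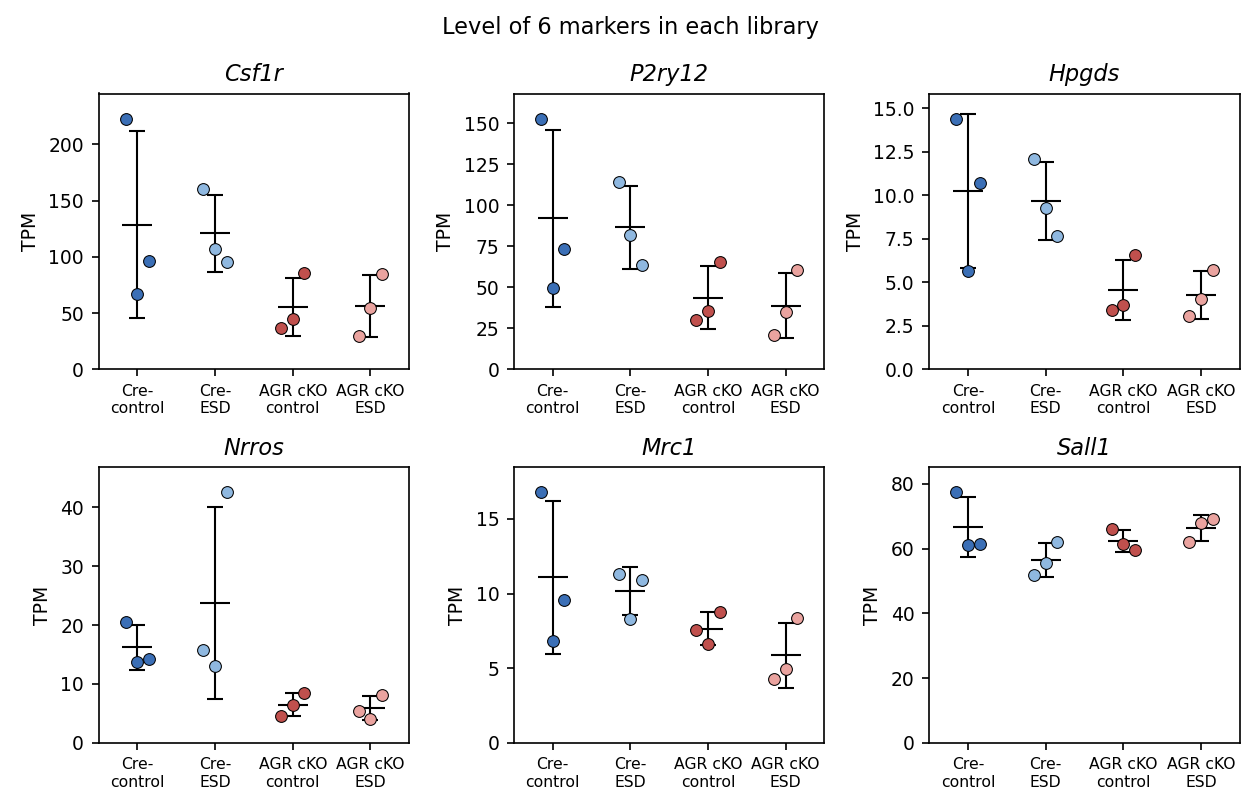
TPM of Csf1r, P2ry12, Hpgds, Nrros, Mrc1 and Sall1 in each library (points), with the mean and SD of the 3 libraries of each group (black). In the first 5 panels the AGR cKO means are below the Cre- means, with overlapping points except for Nrros; the Nrros point at 42.6 TPM is Cre- ESD 3, and the Sall1 panel is level.

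Promoters were read because most members varied together across libraries, and they are shown for a microglial receptor, a border macrophage receptor, the member with the widest range and a lysosomal protease. RefSeq promoter windows for GRCm38.p6 were at hand for 26 of the 33 members, and the 250 bases before each start were searched on both strands, and not for overlap with one another, for 3 motifs. These were AGGAAGT, a core bound by PU.1, GGAANNGAA, a joint site of PU.1-type and interferon regulatory factors, and ACANNNTGT, the core of the glucocorticoid receptor's element. Capitals mark a match, and Nrros is shown as a promoter with none.
P2ry12 chr3:59262986-59263235(-): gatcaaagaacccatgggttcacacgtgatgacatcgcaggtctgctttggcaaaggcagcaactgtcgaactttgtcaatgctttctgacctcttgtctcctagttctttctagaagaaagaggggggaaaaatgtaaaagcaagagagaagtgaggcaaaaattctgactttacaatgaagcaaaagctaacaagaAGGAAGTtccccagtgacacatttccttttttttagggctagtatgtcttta
Mrc1 chr2:14229164-14229413(+): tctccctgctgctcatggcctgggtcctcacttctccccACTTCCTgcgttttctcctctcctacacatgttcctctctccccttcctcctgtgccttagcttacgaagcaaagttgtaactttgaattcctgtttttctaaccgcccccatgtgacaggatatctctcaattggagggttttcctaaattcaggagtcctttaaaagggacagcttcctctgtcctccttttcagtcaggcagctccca
Nrros chr16:32165595-32165844(-): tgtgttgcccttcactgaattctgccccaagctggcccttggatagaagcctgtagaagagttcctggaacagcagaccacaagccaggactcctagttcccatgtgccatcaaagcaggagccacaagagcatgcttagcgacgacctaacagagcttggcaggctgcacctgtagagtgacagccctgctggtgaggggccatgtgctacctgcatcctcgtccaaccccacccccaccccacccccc
Ctss chr3:95526536-95526785(+): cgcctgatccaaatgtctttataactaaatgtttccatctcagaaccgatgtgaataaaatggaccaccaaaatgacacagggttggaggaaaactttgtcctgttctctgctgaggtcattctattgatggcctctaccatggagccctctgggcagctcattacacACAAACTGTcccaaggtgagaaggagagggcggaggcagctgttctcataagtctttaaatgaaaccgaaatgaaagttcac
The PU.1 core begins 52 bases before the start in P2ry12 and 211 bases before it in Mrc1, there on the opposite strand, and the receptor element core begins 82 bases before the start in Ctss. The PU.1 core was present in 9 of 26 members (34.6%), namely F13a1, Fcrls, Hpgds, Inpp5d, Mrc1, P2ry12, Pf4, Ptprc and Sall1, and in 2377 of 27025 genes with such a window (8.8%). The joint site was in 0 of 26 members and 8.01% of genes, and the receptor element core in 3 of 26 (Ctss, Fcgr3 and Siglech) and 6.76% of genes. A match is a string of letters and not evidence of binding.

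Most members varied together. The correlation of each member with the mean of the others on the log2 CPM scale, over 12 libraries, had a median of 0.964, and it was at least 0.9 for 26 of 33. The 12 points share groups of libraries and whatever cells each library held. Csf1r (0.996), Itgam (CD11b, 0.992), P2ry12 (0.991) and Tmem119 (0.991) followed the rest most closely. The exceptions under 0.8 were Lyve1 (0.789), Nrros (0.748), Pf4 (0.609) and Sall1 (-0.117). After the group means were removed, the median was 0.95, with 24 members at 0.9 or more, so the libraries of one group were ordered alike by most members.

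Outside the members, the 10 genes whose log2 CPM correlated best with the mean of the 32 members of at least 1 CPM, among 14962 genes, included Dock2 (0.995), Nckap1l (0.993), Arhgap45 (0.992), Unc93b1 (0.987), Elmo1 (0.986), Sgk1 (0.985), Vav1, C1qc and C1qa (each 0.982). Dock2, Nckap1l, Unc93b1 and the complement genes C1qa and C1qc stood in the list of other microglia and myeloid genes. Sgk1 is a kinase gene that glucocorticoid hormone is known to induce. The 14 endothelial markers had a median correlation of 0.880 with the same mean.

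The comparison of AGR cKO with Cre- asks how deleting the receptor in astrocytes goes with these genes. Over both rearing conditions, 6 libraries against 6, 2 of the 33 members fell in AGR cKO: Nrros and Hpgds. The share of all genes called was 3.49% (668 of 19163), and 2 of 33 is near that share. The members' fold changes were nearly all of the same sign: 32 of 33 log2 fold changes were below 0, with a median of -1.09. Over all genes 50.6% were below 0, with a median of -0.0023. At an unadjusted p under 0.05, 31 of 33 were lower, beside 11.3% of all genes. The other 2 were Inpp5d (adjusted p = 0.312) and Sall1 (adjusted p = 0.656). Most members varied together across libraries (median correlation 0.964), so these counts do not rest on 33 separate observations. The members were also chosen with earlier results of these data known. In bulk RNA of purified astrocytes, fewer microglia in a sample and less of these RNAs per cell cannot be told apart. How many microglia the cortex held, and how many came through the isolation, was not measured.

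Nrros (gene ID 224109, chromosome 16, 32142785 to 32165594), the anchor of latent Tgfb1 on microglia, was the member with the lowest p. It stood at 20.6, 13.7 and 14.3 TPM in Cre- control, 15.8, 13 and 42.6 in Cre- ESD, 4.52, 6.42 and 8.41 in AGR cKO control, and 5.46, 4.10 and 8.13 in AGR cKO ESD. All 6 Cre- libraries were above all 6 AGR cKO libraries, which held for no other member and, in this direction, for 1.40% of all genes. Over both rearing conditions its log2 fold change was -1.75 ± 0.30 (SE, n = 6 against 6, adjusted p = 0.0127). Within ESD it was -2.09 ± 0.43 (n = 3 against 3, adjusted p = 0.046). Control rearing alone gave -1.42 ± 0.43 (adjusted p = 0.283). Without Cre- ESD 3 the value over both conditions was -1.42 (adjusted p = 0.0138) and that under ESD was -1.43, no longer called (adjusted p = 0.111). The call under ESD held without Cre- control 1 and without Cre- ESD 2, and was lost without any one of the other 10 libraries. The call over both conditions was also lost without AGR cKO control 2 (adjusted p = 0.0509).

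Among the deposited transcripts of Nrros, NM_001347181 held 54.5% of its TPM over the 12 libraries. In Cre- ESD 3 it held 25.9 of 42.6 TPM, or 60.8%, and in the other Cre- ESD libraries 42% and 43.8%. Its share ranged from 40.7% to 89.3% in AGR cKO libraries, so no single share marked a genotype. In Cre- control 1 another transcript, NM_146069, held the most, at 32.6%. In Cre- ESD 3 Nrros was 44.6% of Csf1r, against 7.52% to 20.5% in the other 11 libraries.

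Hpgds (gene ID 54486, chromosome 6, 65117293 to 65144981), the prostaglandin D synthase of blood-lineage cells, held 14.4, 5.62 and 10.7 TPM in Cre- control, 12.1, 9.25 and 7.63 in Cre- ESD, 3.39, 3.69 and 6.54 in AGR cKO control, and 3.04, 4.02 and 5.73 in AGR cKO ESD. Only Cre- control 2 lay below an AGR cKO library. Its log2 fold change over both conditions was -1.17 ± 0.25 (n = 6 against 6, adjusted p = 0.0283), with -1.16 ± 0.35 for control rearing (adjusted p = 0.287). Within ESD it was -1.19 ± 0.35 (adjusted p = 0.142). The Hpgds call over both conditions was lost on leaving out any one of Cre- control 3, AGR cKO control 1, AGR cKO control 2, Cre- ESD 1, AGR cKO ESD 1 and AGR cKO ESD 2 (adjusted p = 0.0573 to 0.087).

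Among the surface receptors of homeostatic microglia all 9 log2 fold changes over both conditions lay between -1.22 and -1.09, and none passed the test (adjusted p = 0.0791 to 0.107). P2ry12 had -1.11 ± 0.32 (adjusted p = 0.0791) and Csf1r -1.15 ± 0.33 (adjusted p = 0.0808). The others were Selplg, the P-selectin ligand, Siglech, a receptor of the Siglec family, P2ry13, a second ADP receptor, Cx3cr1, Tmem119, Fcrls and Gpr34, a receptor for lysophosphatidylserine. That range is narrower than the standard error of any of the 9.

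Among the transcription factors Spi1 had a log2 fold change of -1.08 ± 0.34 (adjusted p = 0.105) and Irf8, a partner of PU.1, -0.69 ± 0.27 (adjusted p = 0.175). Spi1 held 17.3, 5.45 and 9.34 TPM in Cre- control, 12.8, 9.34 and 6.54 in Cre- ESD, 2.92, 4.92 and 8.10 in AGR cKO control, and 1.95, 4.99 and 5.82 in AGR cKO ESD. Sall1 had 0.06 ± 0.06 (adjusted p = 0.656).

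Among the adaptors and Fc receptors, 0 of 5 were called. Tyrobp, the adaptor through which Trem2 signals, had -1.1 ± 0.32 (adjusted p = 0.0855). It held 52.1, 21.9 and 30.4 TPM in Cre- control, 59.7, 46.2 and 30.4 in Cre- ESD, 12.6, 14.7 and 30.5 in AGR cKO control, and 8.99, 16.5 and 28.3 in AGR cKO ESD. The third library of each AGR cKO group was close to the lowest Cre- libraries. Trem2 had -0.98, Fcer1g, a signalling chain of Fc receptors, -1.03, Fcgr3, a receptor for antibody, -0.89 and Inpp5d, the phosphatase SHIP-1, -0.51.

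Among the leukocyte and myeloid proteins 0 of 6 were called, with log2 fold changes from -1.42 for Aif1 (IBA1, adjusted p = 0.0602) to -0.97 for Cd53, a tetraspanin. Ptprc had -1.22 ± 0.31 (adjusted p = 0.0554). It held 5.99, 1.83 and 2.65 TPM in Cre- control, 4.35, 3.29 and 2.31 in Cre- ESD, 1.17, 1.07 and 1.66 in AGR cKO control, and 0.681, 1.54 and 2.28 in AGR cKO ESD. Only AGR cKO ESD 3 reached a Cre- library, above Cre- control 2. In the group of Nrros and Hpgds, the remaining 3 members were not called: Cd68, a lysosomal glycoprotein of phagocytes, at -0.98 (adjusted p = 0.0674), Ctss at -1.07 (adjusted p = 0.094) and Olfml3, a secreted protein of microglia, at -0.74 (adjusted p = 0.16).

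**Figure D3:**
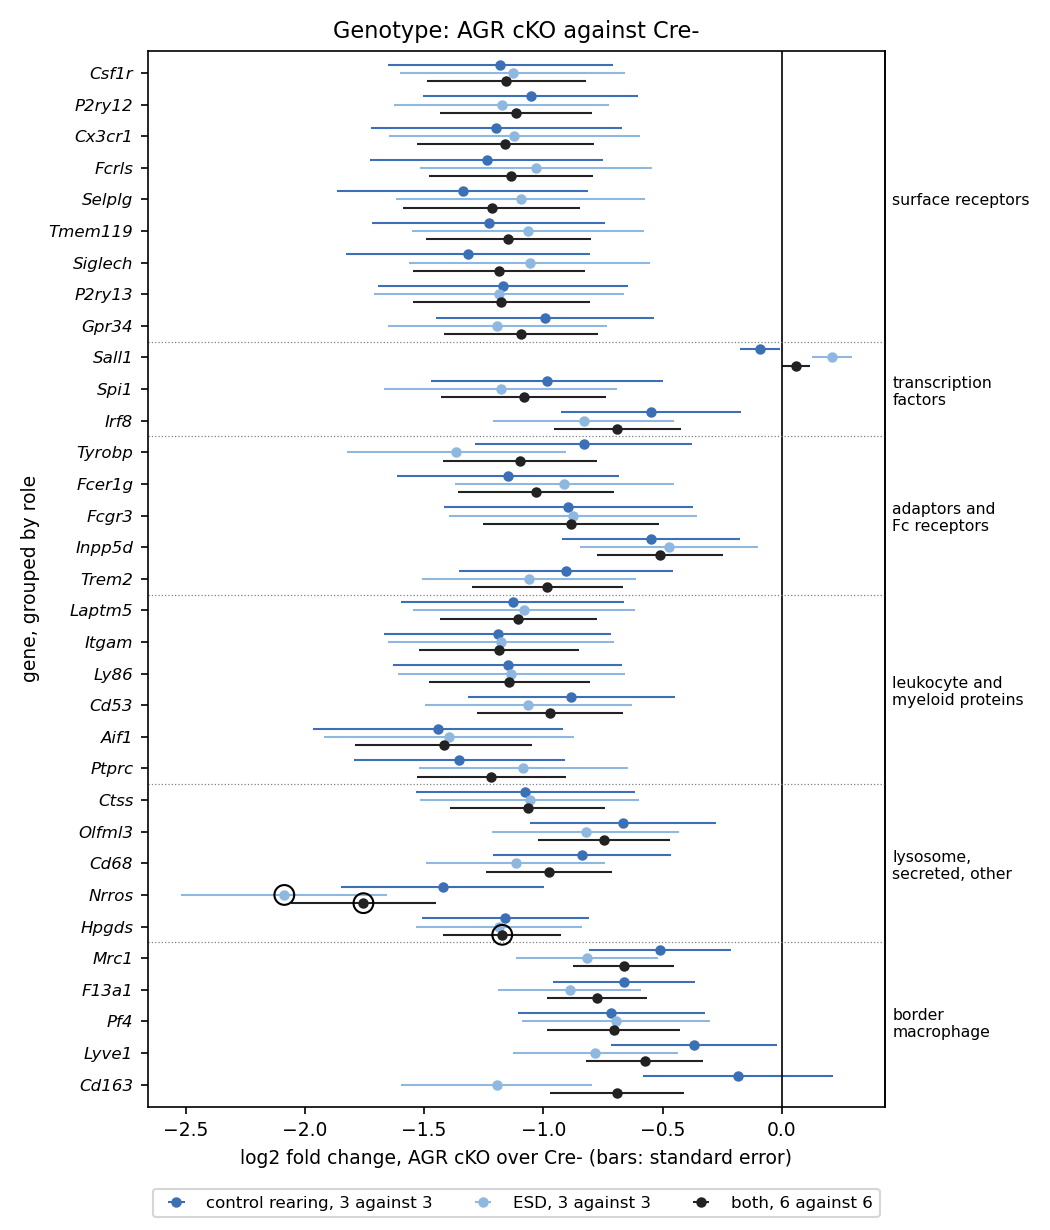
Log2 fold change of AGR cKO over Cre- for each marker in control animals (dark blue), under ESD (light blue) and over both (black), with standard errors; open circles mark an adjusted p under 0.05. Only Nrros (under ESD and over both) and Hpgds (over both) are circled, Sall1 lies at 0, and the 5 border macrophage genes lie between -0.78 and -0.58 over both conditions.

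Border macrophage genes had smaller fold changes than most microglial members, a difference that was not tested. Over both conditions 5 of 5 were below 0 and 0 were called, with a median log2 fold change of -0.69. Mrc1 (gene ID 17533, chromosome 2, 14229414 to 14332023), the mannose receptor, held 16.8, 6.85 and 9.58 TPM in Cre- control, 11.3, 8.31 and 10.9 in Cre- ESD, 7.58, 6.61 and 8.77 in AGR cKO control, and 4.24, 4.95 and 8.36 in AGR cKO ESD. Its log2 fold change was -0.66 ± 0.21 (adjusted p = 0.105). F13a1, a clotting factor subunit, held 8, 3.14 and 3.77 TPM in Cre- control, 5.4, 4.56 and 5.78 in Cre- ESD, 3.28, 2.67 and 3.35 in AGR cKO control, and 2.31, 2.47 and 3.81 in AGR cKO ESD. Its log2 fold change was -0.78 ± 0.21 (adjusted p = 0.0677). Both genes overlapped between genotypes in control animals.

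Cd163, the scavenger receptor for haemoglobin bound to haptoglobin, held 3.01, 0.965 and 1.23 TPM in Cre- control, 3.10, 2.29 and 2.70 in Cre- ESD, 1.48, 1.27 and 1.71 in AGR cKO control, and 0.586, 1.35 and 1.61 in AGR cKO ESD. Its log2 fold change by genotype was -0.19 ± 0.40 for control rearing (adjusted p = 0.923) and -1.20 ± 0.40 within ESD (adjusted p = 0.188). The interaction did not pass (-1.01 ± 0.56, adjusted p = 0.999). Lyve1, a hyaluronan receptor, held 5.16, 1.72 and 2.29 TPM in Cre- control, 3.37, 2.77 and 4.31 in Cre- ESD, 2.52, 2.31 and 2.16 in AGR cKO control, and 1.49, 1.93 and 2.69 in AGR cKO ESD. Pf4, a platelet-type chemokine, held 4.74, 2.89 and 7.87 TPM in Cre- control, 4.67, 4.19 and 4.58 in Cre- ESD, 3.32, 3.34 and 2.61 in AGR cKO control, and 2.29, 1.77 and 4.28 in AGR cKO ESD. Pf4 rested on 18 to 69 counts per library, and its highest value was in Cre- control 3 and not in Cre- control 1, unlike 26 of the members.

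The balance of the cell types was read from sums. The 5 border macrophage genes summed to 10.9 to 37.7 TPM, which was 2.55% to 6.74% of the sum of 26 microglial members (all but these 5, Sall1 and Nrros). That share was 3.16% ± 0.54 (SD, n = 3) in Cre- control, 3.28% ± 1.09 in Cre- ESD, 4.84% ± 1.84 in AGR cKO control and 3.92% ± 1.1 in AGR cKO ESD, with overlapping groups. Cd163 as a share of Mrc1 was 15% ± 2.66 in Cre- control and 26.6% ± 1.65 in Cre- ESD, against 19.4% ± 0.15 and 20.1% ± 6.79 in AGR cKO control and AGR cKO ESD. The Cre- groups did not overlap in that share, which was not tested; it was noticed in the values.

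Split by rearing, the genotype contrasts compared separate libraries but drew on a spread estimated from all 12 libraries, so their tests are not independent. In control animals 0 of 33 members were called, where 0.0157% of all genes were (3 genes), and 33 of 33 log2 fold changes were below 0, as were 52.7% of all genes, with a median of -1.05. At an unadjusted p under 0.05, 19 were lower, beside 5.94% of all genes. The groups did not overlap in CPM for 3 members, Fcer1g, Ptprc and Nrros, all lower in AGR cKO, beside 8.39% of all genes. In TPM the closest Fcer1g libraries of the genotypes both stood at 11.2. Without Cre- control 1 the median was -0.53, and 29 of 33 stayed below 0.

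Under ESD 1 of 33 members fell, Nrros, where 1.04% of all genes were called (200 genes), and 32 of 33 log2 fold changes were below 0, as were 49.7% of all genes, with a median of -1.08. At an unadjusted p under 0.05, 23 were lower, beside 7.68% of all genes. The groups did not overlap in CPM for 19 members that were lower in AGR cKO, beside 9.64% of all genes, among them Csf1r, P2ry12, Tmem119, Spi1, Tyrobp, Itgam, Ctss, Hpgds, Cd163 and F13a1. In the other direction Sall1 did not overlap in CPM, at a log2 fold change of 0.21 ± 0.08 (adjusted p = 0.264), beside 10.3% of all genes. In TPM Sall1 and Gpr34 did overlap, and for Sall1 Cre- ESD 3 (62.1 TPM) lay just above AGR cKO ESD 1 (62.0 TPM). Without AGR cKO ESD 1 the median under ESD was -0.77, and 32 of 33 were below 0.

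The number called over both conditions depended on single libraries. It was 13 without AGR cKO ESD 3, 12 without Cre- control 2, 4 without AGR cKO control 3 and 0 without AGR cKO control 2. It was 1 without any one of Cre- control 3, Cre- ESD 1, AGR cKO control 1, AGR cKO ESD 1 and AGR cKO ESD 2. The shares of all genes called in these fits are not given here. The numbers show how the calls moved, not how the members compare with other genes. DESeq2 on the same counts called 21 members, beside 9.02% of all genes.

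Markers of other cell types were read in the same libraries. The mean z-score (standard deviations from each gene's mean over 12 libraries) of 14 endothelial markers was 1.985 in Cre- control 1 and -1.523 in AGR cKO ESD 1, the libraries that were also highest and lowest in the members, at 1.576 and -1.509. Over both conditions all 14 endothelial markers had log2 fold changes below 0 (50.6% of all genes), with a median of -0.98 and 0 called. At an unadjusted p under 0.05, 12 were lower, beside 11.3% of all genes. Their summed level spanned 678 to 2710 CPM over the Cre- control libraries and 599 to 1150 CPM over AGR cKO control. For the ESD groups the spans were 822 to 1700 CPM (Cre-) and 449 to 843 CPM (AGR cKO). The erythroid, mural, neuron and oligodendrocyte lists had no gene called by genotype or for the interaction, but their medians were not alike in the separate rearing conditions. All 5 erythroid genes were below 0 in each, with a median log2 fold change of -0.54 in control animals and -1.56 under ESD, where all 5 had an unadjusted p under 0.05. Of 13 mural cell and fibroblast markers, 7 were below 0 in control animals (median -0.03) and 13 under ESD (median -0.49), where 4 had an unadjusted p under 0.05. The contractile gene Myh11 had -1.06 ± 0.39 under ESD (adjusted p = 0.223). Of 12 neuron markers, 1 was below 0 in control animals (median 0.48) and 11 under ESD (median -0.49), and 4 and 5 had an unadjusted p under 0.05. Over all genes, 10.2% in control animals and 15.6% under ESD had an unadjusted p under 0.05 in either direction. Log2 fold changes below 0 made up 52.7% and 49.7% of all genes there. Slc17a7, a vesicular glutamate transporter, had 1.51 ± 0.33 with control rearing (adjusted p = 0.211), but -0.85 ± 0.33 within ESD (adjusted p = 0.244). The 10 tested oligodendrocyte lineage markers had medians of 0.02 and -0.23. Averaged over both conditions, the medians were -1.04 for erythroid, -0.27 for mural and fibroblast, and 0.01 for both neuron and oligodendrocyte lineage lists. What part these lists had in the members' values was not tested.

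**Figure D4:**
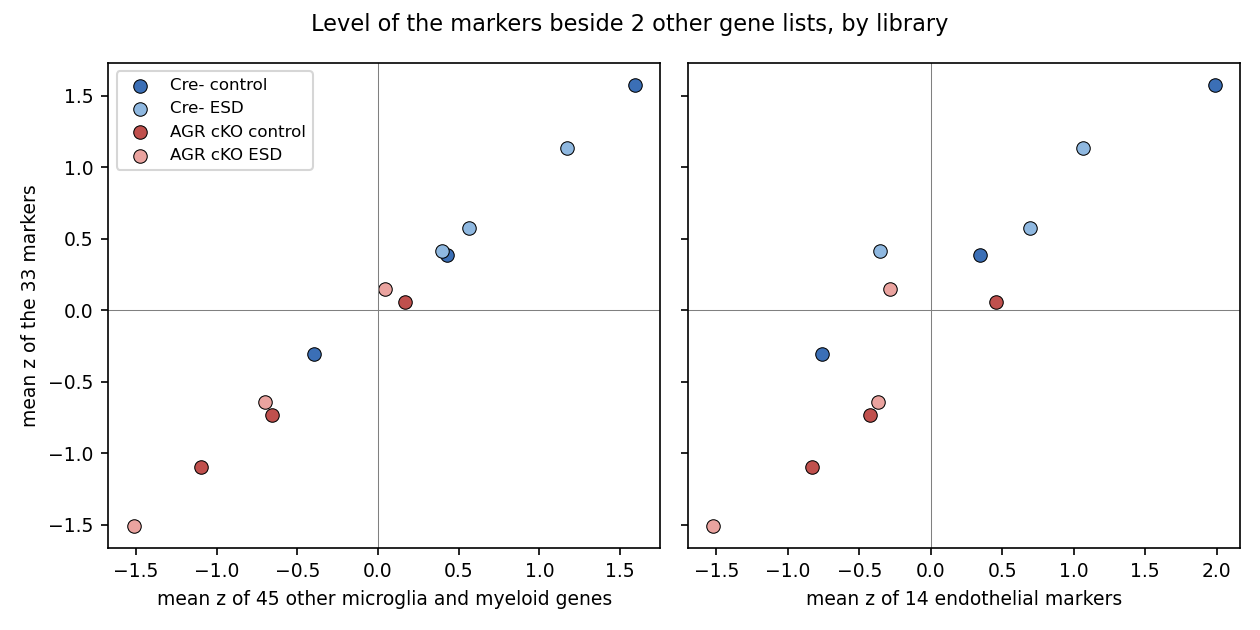
Mean z-score of the 33 markers (vertical) against that of 45 other microglia and myeloid genes (left) and of 14 endothelial markers (right) in the 12 libraries, coloured by group. On the left the points lie near a line from AGR cKO ESD 1 at -1.509 to Cre- control 1 at 1.576; on the right they are more scattered, and Cre- ESD 3 has a marker level of 0.411 with an endothelial level of -0.352.

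Entering the endothelial level of each library as a covariate, a choice made after the data were seen, took the members' median log2 fold change over both conditions to -0.44, with 31 of 33 below 0. Nrros (-1.71, adjusted p = 0.0252) and Hpgds (-0.68, adjusted p = 0.0338) were called there too, beside 2.70% of all genes. The endothelial markers themselves correlated with the members' mean (median 0.88), so that fit is not a separate check. Entering the level of 45 other microglia and myeloid genes took the median to -0.02. There 20 of 33 were below 0 and 0 were called, beside 0.271% of all genes. This covariate nearly equals the members' own mean z-score (1.593 and 1.576 in Cre- control 1, -1.514 and -1.509 in AGR cKO ESD 1). The drop in the median thus follows from the choice of covariate. Nrros had -1.43 (adjusted p = 0.153) and Hpgds -0.37 (adjusted p = 0.337) in that fit. How far these other cell types account for the members' values was not tested.

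Of those 45 other microglia and myeloid genes, all 45 had log2 fold changes below 0 over both conditions (50.6% of all genes), with a median of -1.01. Their correlations with the members' mean had a median of 0.959, and the list was chosen with earlier results of these data known, so they are not a separate check on the members. Of the 45, 5 fell, where 3.49% of all genes were called. They were Dock8 (-0.93, adjusted p = 0.0226) and Rac2 (-1.12, adjusted p = 0.0255), which act on the cytoskeleton of leukocytes, Lgmn (-0.40, adjusted p = 0.0328), a lysosomal protease, Havcr2 (-1.07, adjusted p = 0.0411), an inhibitory receptor, and Adgre1 (-1.15, adjusted p = 0.0421), the macrophage antigen F4/80. Lgmn held 183 ± 25.7 CPM (SD, n = 3) in Cre- control and 140 ± 12.9 in AGR cKO control.

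The ligands of microglial receptors and partners of transforming growth factor beta gave 0 of 11 called over both conditions, with 9 of 11 below 0 and a median of -0.30. Csf1 stood at 115 ± 9.79 CPM (SD, n = 3) in Cre- control and 107 ± 4.52 in AGR cKO control (log2 fold change over both conditions -0.09 ± 0.10, adjusted p = 0.718), and Il34 had -0.19 ± 0.35 (adjusted p = 0.826). Smad3, which carries the signal to the nucleus, had -0.29 ± 0.08 (adjusted p = 0.0804), and the receptor Tgfbr2 -0.82 ± 0.25 (adjusted p = 0.0927). Tgfbr2 correlated with the members over the 12 libraries (0.899), Csf1 much less so (0.321).

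The rearing comparison asks whether time away from the dam goes with these genes. In Cre- animals 0 of 33 members were called, as was 0% of all genes, with 15 of 33 log2 fold changes below 0 (54.1% of all genes) and a median of 0.02. In AGR cKO animals 0 of 33 were called, again beside 0% of all genes, with 18 of 33 below 0 (49% of all genes) and a median of -0.02. At an unadjusted p under 0.05 the edgeR counts were 1 (Sall1, -0.18 ± 0.08, adjusted p = 0.693) and 0, beside 7.19% and 7.58% of all genes. DESeq2 called 0 members in both. The members' standard errors had medians of 0.45 and 0.46, so smaller log2 changes than these lay within 1 standard error.

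The widest fold changes by rearing were in Cre- animals, where Cd163 had 0.71 ± 0.39 (adjusted p = 0.719) and Nrros 0.64 ± 0.41 (adjusted p = 0.75). The Nrros value over both genotypes was 0.31 ± 0.30 (adjusted p = 0.729), and -0.02 without Cre- ESD 3. Csf1r and P2ry12 had -0.02 and -0.03 in Cre-, and 0.03 and -0.15 in AGR cKO. Over both genotypes 0 of 33 were called (0% of all genes), with 14 of 33 below 0 (52% of all genes) and a median of 0.03. The medians turned sign with single libraries: in Cre- animals from 0.55 without Cre- control 1 to -0.24 without Cre- control 2, and in AGR cKO from 0.37 without AGR cKO control 3 to -0.38 without AGR cKO ESD 3.

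**Figure D5:**
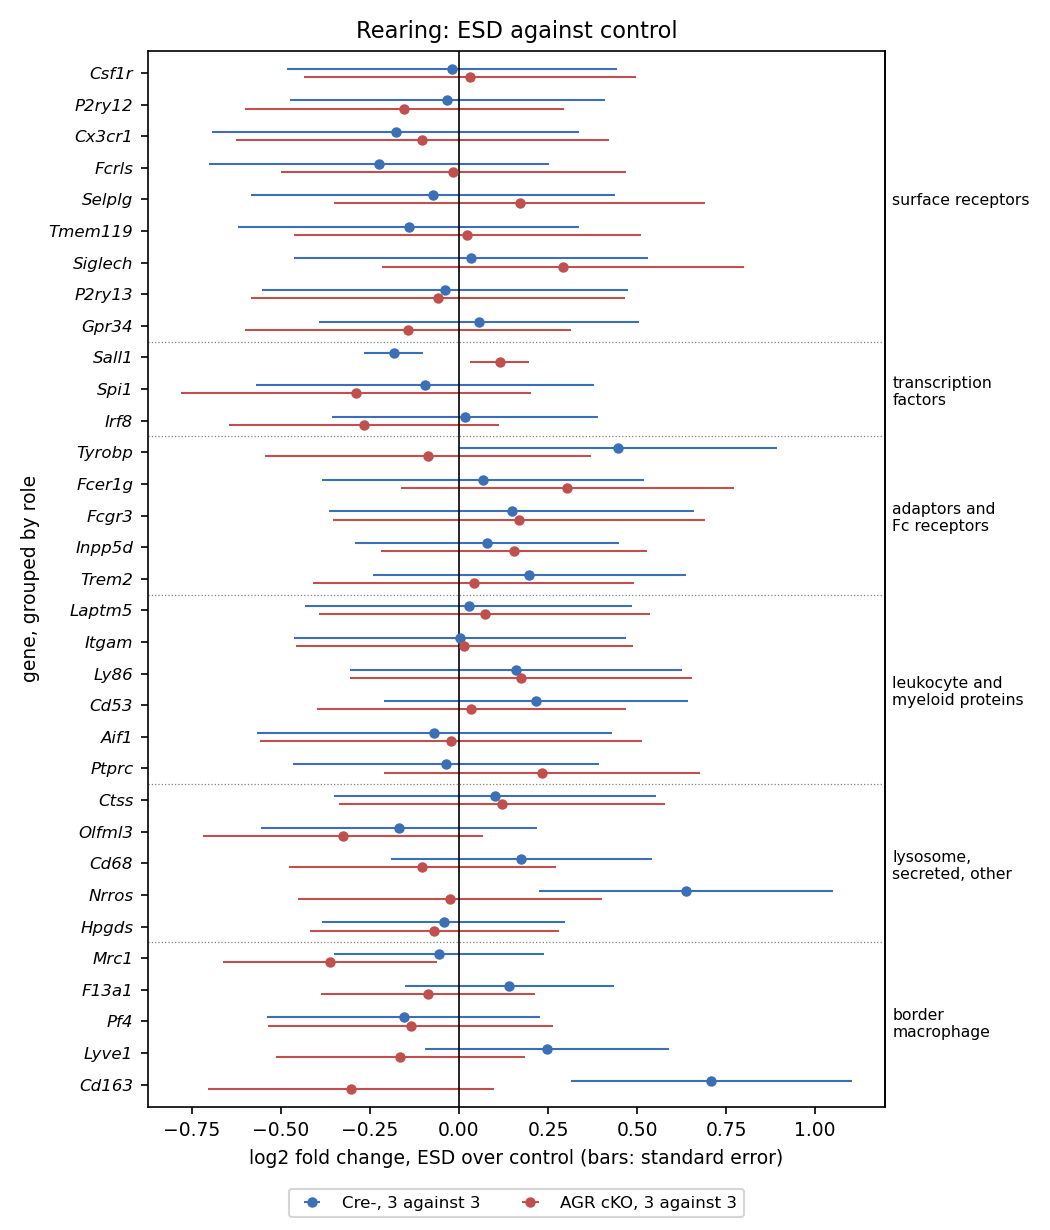
Log2 fold change of ESD over control for each marker in Cre- (blue) and AGR cKO (red) libraries, with standard errors. Most points lie within 1 standard error of 0, and the points farthest to the right are Cd163 at 0.71 and Nrros at 0.64 in Cre-.

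For the interaction of genotype and rearing 0 of 33 members were called, as was 0% of all genes, with a median of 0.01 and 16 of 33 below 0 (46.9% of all genes). Sall1 had the smallest p (0.30 ± 0.12, adjusted p = 0.999) and was the 1 member at an unadjusted p under 0.05, beside 4.49% of all genes. In CPM its AGR cKO groups did not overlap between rearing conditions, with ESD at 123 to 133 CPM and control at 114 to 121 CPM, beside 7.94% of all genes. In TPM they did overlap. No difference between the genotypes in their response to rearing was detectable for the members at this number of libraries.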

How the data were processed

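RNA was sequenced from 12 astrocyte samples in 4 groups of 3, which were taken from the sample titles since genotype entries count up with the replicate in some labels, and table columns marked cre_M and cre_P were read as Cre- and AGR cKO. Counts per gene and per transcript are whole numbers in the tables the authors deposited, and how they were derived or whether strand was used is not given in the sources used here. The deposited tables also hold TPM, a level scaled by length and depth, which was used for levels between genes, and FPKM, which was not used, per the file headers. Bowtie2, HISAT, HISAT2 2.1.0, StringTie 1.3.4b, Trimmomatic, DESeq2 and the build mm10 are listed, with no role for each, per the submitters' processing notes. How reads shared by near-identical genes were split is not stated either, which bears on Fcgr3 and its relatives.

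Genes passing filterByExpr of edgeR 4.0.16 (R 4.3.3) were fitted on the deposited counts with TMM scaling, 1 mean per group and quasi-likelihood tests with 8 residual degrees of freedom, two-sided. The common biological coefficient of variation was 0.1945. Calls required an adjusted p (Benjamini-Hochberg, across the 19163 genes of a contrast) under 0.05, in 7 contrasts. Contrasts over both conditions average the contrasts within each, so they share libraries with them. An exact permutation test of 3 against 3 cannot go below 0.1, so no single gene was tested alone. The fit was tested on simulated counts, drawn separately for each gene with the same spread for all genes. That simulation does not cover genes that vary together, as most members did. Alternatives were DESeq2 1.42.0, limma 3.58.1 on TPM, other scalings, filters and thresholds, a block on replicate number, and each library left out.

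Members named by rule were those called in any contrast, the 6 with the highest mean TPM, the 5 border macrophage genes and the member of each role with the smallest p by genotype. The members, role lists and marker lists were chosen with earlier results of these data known. For correlations, 2 was the prior count of log2 CPM. A gene among the best correlated is not reported here. Promoter letters are from RefSeq.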

Additional observations from a re-analysis of the deposited data

How the results depend on the processing

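The lowest member counts in a library were 18 for Pf4 and 25 for Aif1, and precision was limited by 3 libraries per group and their spread. Members called by genotype in control animals were 0, and 1 (Nrros) by DESeq2. Members called by genotype under ESD were 1, and 4 by DESeq2 (Cd68, Hpgds, Nrros and Tyrobp), and 0 with no filter on low counts, with the groups compared alone, in each of 3 limma-trend fits on TPM, and with either added covariate (other microglia and myeloid genes, or endothelial markers). Leaving out 1 library at a time gave 0 to 1 there. Over both rearing conditions 2 were called, against 18 at an adjusted p under 0.1 (beside 7.74% of all genes) and 21 by DESeq2. The number was 0 by limma-trend on TPM with no filter or with the other microglia genes as a covariate. Leaving out 1 library gave 0 to 13, which shows how the calls moved and not how the members compare with other genes. No member was called for rearing or for the interaction under any alternative run. Over all genes DESeq2 called 273, 817 and 1729 by genotype in control animals, under ESD and over both, against 3, 200 and 668 by edgeR, and 26, 23, 38 and 9 against 0 for rearing in Cre-, in AGR cKO, over both genotypes and the interaction. With the groups compared alone 31 and 0 genes were called by genotype in control animals and under ESD. With no filter 100 were called under ESD by edgeR, and 50 there and 256 over both by limma-trend; the other microglia genes as a covariate left 0 under ESD and 52 over both. The median log2 fold change by genotype kept its sign under all alternatives other than the covariates, from -1.47 to -0.53 in control animals, -1.48 to -0.77 under ESD and -1.30 to -0.84 over both. With the other microglia genes as a covariate it was 0.06 under ESD. For the interaction the median went from -0.57 without Cre- control 1 to 0.30 without AGR cKO control 3. Deviations of same-numbered libraries of different groups had correlations from -0.104 to 0.227 (over 0.1 in 7 of 18 pairs, median 0.0385). Whether the numbers mark libraries handled together was not tested, and the main fit did not pair them. With a replicate block the members called were 0 by genotype in control animals, 1 under ESD and 2 over both. The shares of all genes called in that fit are not given here. Where a count or value moved, the cause was not tested.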

Other observations

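Genes of activated microglia and macrophages were mostly lower in AGR cKO by fold change as well, with 12 of 15 tested log2 fold changes below 0 over both rearing conditions, a median of -0.50 and 0 called. Tnf, the inflammatory cytokine, had -1.31 ± 0.37 (adjusted p = 0.0753 by edgeR) and stood at 13.9 ± 9.82 CPM (SD, n = 3) in Cre- control, 20.6 ± 8.05 in Cre- ESD, 5.35 ± 2.79 in AGR cKO control and 8.7 ± 3.04 in AGR cKO ESD. Ccl4, a chemokine, had -1.03 ± 0.36 (adjusted p = 0.136). Apoe, which astrocytes also make in large amounts, stood at 5570 to 9720 CPM and correlated with the members at -0.450 over the 12 libraries. Itgax rested on at most 26 counts in a library, and no fold is given for it.

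Among 12 tested further genes of border macrophages, 12 of 12 log2 fold changes over both conditions were below 0, with a median of -0.60 and 0 called. Both this list and that of activation genes were chosen with earlier results of these data known. Ccr1, a chemokine receptor, had -1.08 ± 0.35 (adjusted p = 0.108) and Stab1, a scavenger receptor, -0.88 ± 0.33 (adjusted p = 0.16). Astrocyte genes moved in both directions in that contrast: Aqp4, the water channel, rose by 0.50 ± 0.11 on the log2 scale (adjusted p = 0.0315), while Gjb6, a gap junction protein, fell by 1.14 (adjusted p = 0.0218) and Aldoc, a glycolytic enzyme, fell by 0.51 (adjusted p = 0.0495).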
